A study of Mus musculus with 6 samples.

Results

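Peroxisomal beta-oxidation enzymes were measured in the livers of lox control and liver-deleted SIRT1 LKO mice. The 9 genes Acox2, Acox3, Ehhadh, Hsd17b4, Acaa1a, Acaa1b, Scp2, Amacr and Decr2 were taken by name, and every array probe carrying 1 of these names was read. They had 12 of the 41174 probes other than control spots, and all 9 were among the 16512 genes with a tested probe. The control group was lox control mice, labelled C57BL/6, male, 10 weeks old, on chow with free access to food, with livers taken at 4 pm. The second group, SIRT1 LKO, had a deletion of Sirt1 directed to the liver and was otherwise described in the same words. Sirt1 encodes an NAD-dependent protein deacetylase, and the design text names PPAR-alpha-mediated traits as the object of study. Neither the promoter that drove the deletion nor the exon removed is stated in the labels. Each group had 6 mice combined into 3 pools of 2, so that a replicate is a pool and n is 3 per group throughout. The p-values set the difference between groups against the spread between pools.

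Peroxisomes shorten fatty acids that mitochondria handle poorly, such as very long chain, branched and dicarboxylic acids, and they also shorten the side chain of bile acid precursors. An acyl-CoA oxidase opens the cycle and releases hydrogen peroxide, a bifunctional enzyme adds water and oxidises the product, and a thiolase cuts off the shortened chain. Amacr turns branched substrates into the stereoisomer that the oxidases accept, and Decr2 removes double bonds that would stop the cycle. The nuclear receptor PPAR-alpha is known to drive many of these genes in rodent liver.

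Of the 12 probes, 3 spanned more of the genome than their own 60 bases and so crossed at least 1 exon junction. The sequences of the Acaa1a junction probe and the Acox2 probe are printed. Results on Acaa1a probes that differ from each other rest on the former. The Acox2 probe also crosses a junction, and it is the only probe of its gene. All coordinates are those of the array files, on mouse build mm7. The Acaa1a junction probe lies at chr9:119026729-119027949 on the plus strand and covers 1221 bases of genome. The Acox2 probe lies at chr14:6034599-6038988 on the minus strand and covers 4390 bases. A further probe of the 3, called the shared Acaa1 probe here, is named Acaa1a in the files but listed against the RefSeq transcripts of both Acaa1a and Acaa1b. Each sequence printed has 1 reading frame without a stop codon, in lower case because no part is singled out.
Acaa1a junction probe: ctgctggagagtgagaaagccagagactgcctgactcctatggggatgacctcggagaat
Acox2 probe: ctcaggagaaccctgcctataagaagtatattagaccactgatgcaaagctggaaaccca

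Levels below are log2 intensities minus the 75th percentile of the same array, and differences are SIRT1 LKO minus Control. Hybridisation to 1-colour Agilent arrays gave a 75th percentile of 1004.9 to 1056.1 in 5 arrays and 1288.7 in that of SIRT1 LKO pool 3, with 52.2% to 66.4% of probes well above background. The 3 control pools lay on 1 slide, SIRT1 LKO pools 1 and 2 on another and pool 3 alone on its own. The spread between SIRT1 LKO pools therefore also holds any slide difference, and that between control pools does not. No slide held both genotypes, so slide and genotype cannot be told apart. A fit with slide as a random block cannot separate them either, and in it 0 of 11 enzyme probes passed the test. For SIRT1 LKO pool 3 the deposited value table and the scanner file disagreed: they matched within 1% for 0.852% of probes, against at least 99.672% in the other 5 samples. Scanner files are used here, and values from the value table and without that pool are given beside the results that moved most. The brighter of the Sirt1 probes differed by -0.24 (SE 0.10, limma adjusted p = 0.243) and the dimmer by -0.02 (adjusted p = 0.941). Since the deleted exon is unknown, neither value checks the labels. The hepatocyte markers Alb, Ttr, Apoa1, Apoh, Tat and Ahsg were all above background, and their summed level was 10.46 to 10.67 in the controls and 10.44 to 10.81 in SIRT1 LKO. In whole liver, fewer cells of a type and less RNA per cell cannot be told apart.

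None of the peroxisomal beta-oxidation enzymes passed the test for a difference between the genotypes. Of the 12 probes 11 were well above background on all 6 arrays and were tested, and 0 of these 11 had a limma adjusted p under 0.05, where 0.0636% of all 23591 tested probes did (15 probes, 1 higher and 14 lower). At an unadjusted p under 0.05 the count was also 0 of 11, where 21.2% of all tested probes passed. Values of the pools did not overlap between the groups in 1 of 11, the Amacr probe, against 28.8% of all tested probes. Differences of the 11 probes ran from -0.43 to 0.12 with a median of -0.11, and their median absolute difference was 0.12, where those of all tested probes were 0.02 and 0.19. The 95% interval of every one of the 11 differences lay within 1 log2 unit of 0 on both sides, the lowest bound being -0.96 (shared Acaa1 probe) and the highest 0.49 (Acox2). By sign, 8 probes were lower and 3 higher in SIRT1 LKO, which became 11 lower and 0 higher with normexp background correction, 9 and 2 with quantile normalization and 7 and 4 with the value table or without SIRT1 LKO pool 3.

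**Figure D1:**
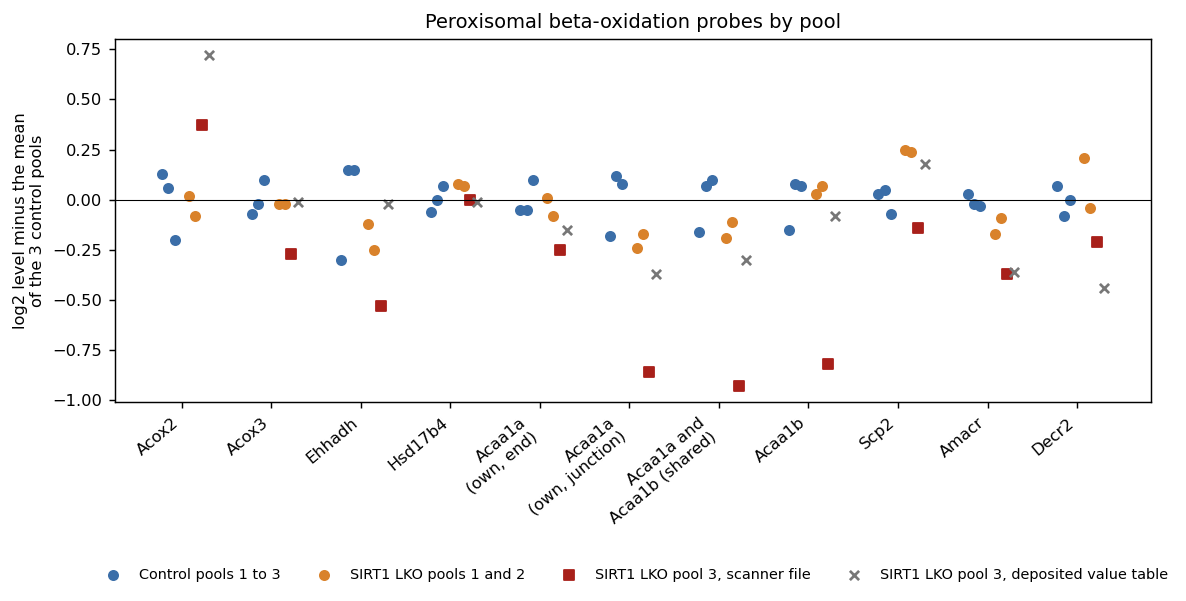
Level of each tested probe in each pool, on the y axis as log2 level minus the mean of the 3 control pools, with 1 column per probe. Blue circles are control pools, orange circles SIRT1 LKO pools 1 and 2, red squares SIRT1 LKO pool 3 from the scanner file and grey crosses the same pool from the deposited value table; the red squares lie lowest of all 6 pools in 9 of 11 columns and highest for Acox2.

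The oxidases open the cycle. Acox2, which oxidises bile acid intermediates and branched chains, had levels of 5.29, 5.22 and 4.96 in control pools 1 to 3 and of 5.18, 5.08 and 5.53 in SIRT1 LKO pools 1 to 3. The groups overlapped, with SIRT1 LKO pool 3 the highest of the 6 and control pool 3 the lowest. Means were 5.16 ± 0.18 and 5.26 ± 0.24 (SD), a difference of 0.11 (1.08-fold higher, SE 0.16, 95% interval -0.27 to 0.49, limma adjusted p = 0.725). This sign rested on pool 3: without it the difference was -0.03, with normexp background correction -0.01, and with the value table, where pool 3 stood at 5.88, it was 0.22.

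Acox3, an oxidase of branched-chain substrates, is read by a probe at chr5:34675960-34676019 on the plus strand. Its levels were 1.95, 2.00 and 2.12 in the controls and 2.00, 2.00 and 1.75 in SIRT1 LKO. SIRT1 LKO pools 1 and 2 lay inside the control range and only pool 3 lay below it. The difference was -0.11 (1.08-fold lower, SE 0.11, 95% interval -0.38 to 0.16, adjusted p = 0.610), and -0.02 either without pool 3 or with the value table.

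Ehhadh and Hsd17b4 are the bifunctional enzymes of the middle steps, Ehhadh acting on straight-chain and dicarboxylic substrates and Hsd17b4 on branched chains and bile acid intermediates as well. The Ehhadh probe lies at chr16:21411280-21411339 on the minus strand. Its levels were 4.89, 5.34 and 5.34 in the controls and 5.07, 4.94 and 4.66 in SIRT1 LKO. Control pools 2 and 3 were above all SIRT1 LKO pools, but control pool 1 fell among them, so the groups overlapped. Means were 5.19 ± 0.26 and 4.89 ± 0.21 (SD), a difference of -0.30 (1.23-fold lower, SE 0.17, 95% interval -0.71 to 0.12, adjusted p = 0.365). Ehhadh, a textbook PPAR-alpha target, kept a negative sign in all 19 alternatives, from -0.45 to -0.13, with limma adjusted p from 0.106 to 0.839. Some of these, such as a changed filter or a replicate block, cannot move the difference of a single probe, which stayed at -0.30. The difference was -0.13 with the value table and -0.18 without SIRT1 LKO pool 3.

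Hsd17b4 covered the narrowest range of the 11 probes over the 6 pools. Its probe, at chromosome 18, 50573768 to 50573827 on the plus strand, had levels of 6.91, 6.97 and 7.04 in the controls and of 7.05, 7.04 and 6.97 in SIRT1 LKO. Both groups covered nearly the same range, and the value table placed pool 3 at 6.96. The difference was 0.04 (1.03-fold higher, SE 0.09, 95% interval -0.17 to 0.26, adjusted p = 0.812) and 0.07 without pool 3, with the opposite sign under normexp background correction (-0.19) and a value of 0.00 under quantile normalization. Ehhadh and Hsd17b4 thus gave differences of -0.30 and 0.04 from probes of which neither passed the test, and the gap between them was not tested.

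Acaa1a, Acaa1b and Scp2 supply the thiolases of the last step, Acaa1a and Acaa1b as near copies for straight chains and Scp2 for branched chains and bile acid intermediates. Because Acaa1a and Acaa1b are so alike, a probe can bind both transcripts, and their signals are uncertain as measures of either gene alone. The Acaa1a end probe at chr9:119030443-119030499, on the plus strand, had levels of 7.53, 7.53 and 7.68 in the controls and 7.59, 7.50 and 7.33 in SIRT1 LKO. SIRT1 LKO pool 1 lay inside the control range, pool 2 just under it and pool 3 further below. The difference was -0.11 (1.08-fold lower, SE 0.11, 95% interval -0.37 to 0.15, adjusted p = 0.588), and it was -0.04 without pool 3 and -0.08 with the value table.

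The Acaa1a junction probe had levels of 6.27, 6.57 and 6.53 in the controls and 6.21, 6.28 and 5.59 in SIRT1 LKO. Here SIRT1 LKO pool 3 stood far below the other 5 pools, and pool 2 lay just above control pool 1, so the groups overlapped. The difference was -0.43 (1.35-fold lower, SE 0.20, 95% interval -0.91 to 0.06, adjusted p = 0.277), the lowest of the 11. It was -0.21 without pool 3 and -0.27 with the value table.

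The shared Acaa1 probe had levels of 7.09, 7.32 and 7.35 in the controls and 7.06, 7.14 and 6.32 in SIRT1 LKO. Its order of pools was the same as that of the junction probe at the bottom, with SIRT1 LKO pool 3 lowest, then SIRT1 LKO pool 1, then control pool 1. The difference was -0.41 (1.33-fold lower, SE 0.23, 95% interval -0.96 to 0.14, adjusted p = 0.343), and it was -0.15 without pool 3 and -0.20 with the value table.

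Acaa1b, read by a probe at chr9:118828412-118828471 on the minus strand, had levels of 7.54, 7.77 and 7.76 in the controls and 7.72, 7.76 and 6.87 in SIRT1 LKO. Pools 1 and 2 lay within the control range and pool 3 well below every other pool. The difference of -0.24 (1.18-fold lower, SE 0.25, 95% interval -0.84 to 0.36, adjusted p = 0.608) came from that pool: it was 0.05 without pool 3 and 0.01 with the value table, in which pool 3 stood at 7.61.

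Scp2 is read by a probe at chr4:107420756-107420815 on the minus strand, which gave 7.68, 7.70 and 7.58 in the controls and 7.90, 7.89 and 7.51 in SIRT1 LKO. SIRT1 LKO pools 1 and 2 were above all controls and pool 3 below them. The difference was 0.12 (1.09-fold higher, SE 0.13, 95% interval -0.20 to 0.44, adjusted p = 0.640), 0.25 without pool 3, 0.23 with the value table and -0.05 with normexp background correction. A second Scp2 probe at chr4:107471315-107471374, taken from another transcript record, was not well above background on any of the 6 arrays and was not tested. The gene thus has 1 readable probe, and which Scp2 transcripts it reads was not tested.

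Probes of 1 gene could be set against each other within each array for Acaa1a alone. All 3 Acaa1a probes had a negative difference, but its size was -0.11 at the end probe and -0.43 and -0.41 at the junction and shared probes. With the control mean set to 0, the end probe minus the junction probe was 0.14, -0.16 and 0.03 in the controls and 0.25, 0.09 and 0.61 in SIRT1 LKO. The groups overlapped, and the difference of 0.32 had an exact two-sided permutation p of 0.2, where 0.1 is the smallest that 3 against 3 can give. It was 0.17 without pool 3 and 0.19 with the value table, so that part of the disagreement lay in that pool.

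The end probe minus the shared probe was 0.11, -0.12 and 0.01 in the controls and 0.20, 0.03 and 0.68 in SIRT1 LKO, again with pool 3 far from the rest. That difference was 0.30 (exact permutation p = 0.2), 0.11 without pool 3 and 0.13 with the value table. The junction and shared probes stayed close to each other, at -0.02, 0.04 and -0.02 in the controls and -0.05, -0.07 and 0.07 in SIRT1 LKO, a difference of -0.02 (exact permutation p = 0.6).

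A pair of probes with different gene names, Acaa1b and the shared probe, was added after the transcripts listed for the shared probe had been read. Acaa1b minus the shared probe was 0.02, 0.01 and -0.02 in the controls and 0.22, 0.18 and 0.11 in SIRT1 LKO. Every SIRT1 LKO pool lay above every control pool, by 0.17 on average (exact permutation p = 0.1, the smallest possible), and this difference was 0.20 without pool 3 and 0.21 with the value table. Adjusted over the 4 pairs the exact permutation p-values were 0.267 for this pair and for both end probe pairs and 0.6 for the junction and shared pair, none past 0.05. A ratio within an array shows unequal signal at the probes and not which of them moved.

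**Figure D2:**
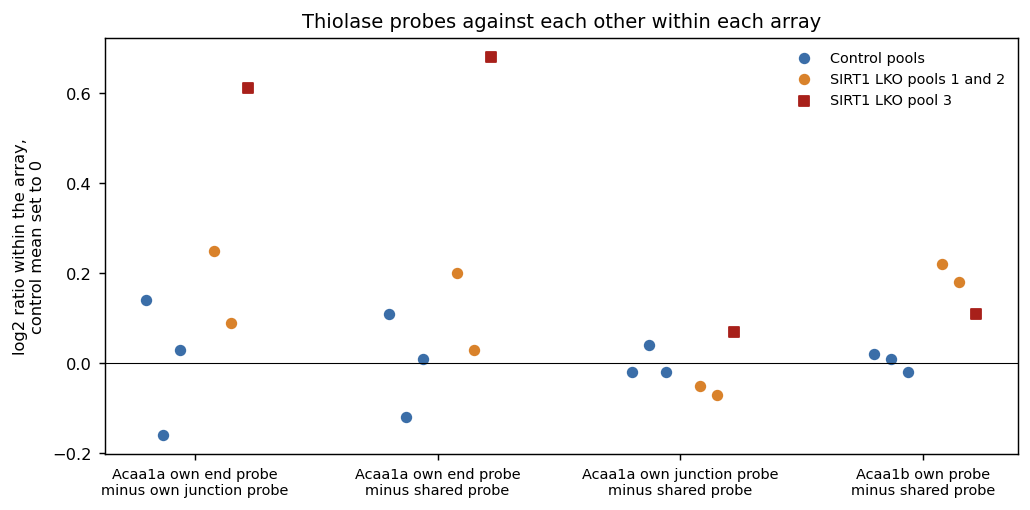
Log2 ratio of a pair of thiolase probes within each array, control mean set to 0 (y axis), for the 4 pairs compared (x axis). Each point is a pool; in the pairs with the end probe SIRT1 LKO pool 3 stands at 0.61 and 0.68 above the other pools, whereas for Acaa1b minus the shared probe all 3 SIRT1 LKO pools, at 0.11 to 0.22, lie above the controls.

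Amacr and Decr2 prepare substrates for the cycle. Amacr, the racemase, is read by a probe at chr15:11053673-11053732 on the plus strand, with levels of 6.12, 6.07 and 6.06 in the controls and 5.92, 6.00 and 5.72 in SIRT1 LKO. All 3 SIRT1 LKO pools lay below all 3 controls, the only such separation among the 11 probes, and 28.8% of all tested probes separated in 1 direction or the other. Means were 6.09 ± 0.03 and 5.88 ± 0.15 (SD), a difference of -0.20 (1.15-fold lower, SE 0.11, 95% interval -0.46 to 0.05, adjusted p = 0.317). The sign was negative in all 19 alternatives, of which some cannot move the difference. Values ran from -0.26 to -0.12, with limma adjusted p never under 0.183. The difference was -0.20 with the value table and -0.12 without pool 3.

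Decr2, the peroxisomal dienoyl-CoA reductase, is read by a probe at chr17:24265055-24265114 on the minus strand. Its levels were 4.29, 4.14 and 4.22 in the controls and 4.43, 4.18 and 4.01 in SIRT1 LKO. The SIRT1 LKO pools lay on both sides of the control range. The difference was -0.01 (1.01-fold lower, SE 0.13, 95% interval -0.32 to 0.30, adjusted p = 0.972), with 0.09 without pool 3 and -0.09 with the value table.

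**Figure D3:**
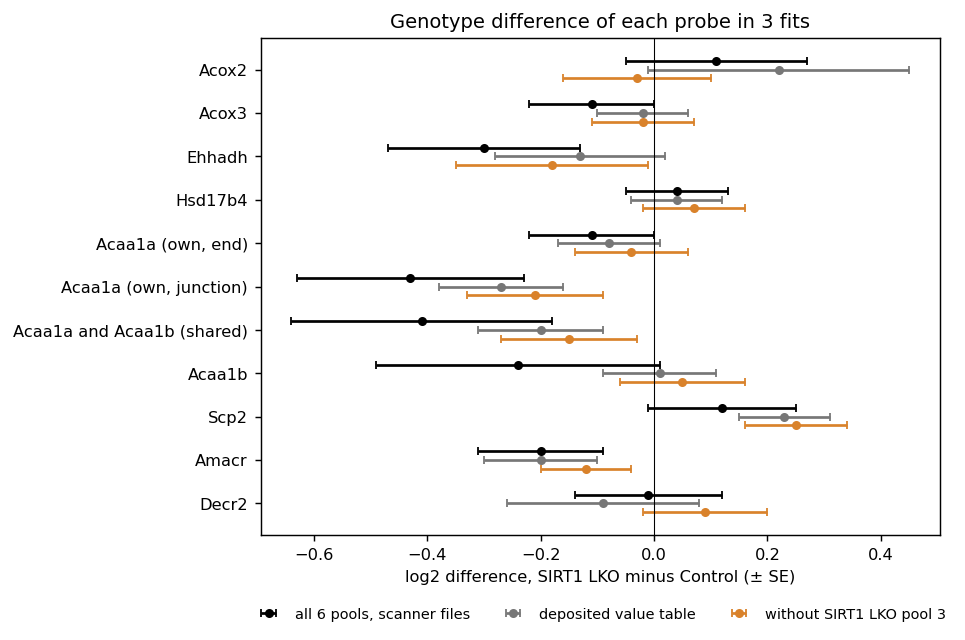
Log2 difference, SIRT1 LKO minus Control, of each tested probe (y axis) with its SE as a horizontal bar (x axis), from all 6 pools of the scanner files (black), from the deposited value table (grey) and without SIRT1 LKO pool 3 (orange). The black points reach -0.43 at the Acaa1a junction probe and -0.41 at the shared probe, and the grey and orange points of these probes lie between -0.27 and -0.15; Acaa1b, Acox2 and Decr2 change sign between these fits, and Hsd17b4, Acox2 and Scp2 do so with normexp background correction, which is not drawn.

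The probes shared the position of 1 pool. SIRT1 LKO pool 3 was the lowest of the 3 SIRT1 LKO pools at 10 of 11 probes, all but Acox2, and the lowest of all 6 pools at 9 of 11. Over all tested probes that pool was lowest of its group at 44.9% and lowest of the 6 at 21.5%, and over the 2145 probes with a mean level of at least 4 these shares were 70.4% and 35.5%. It was also lowest of its group for 6 of 6 hepatocyte markers and for 4 of 10 genes of mitochondrial beta-oxidation. Read from the value table, it was lowest of its group at 8 of 11 probes and lowest of the 6 at 5 of 11, against 36.9% and 14.1% of all tested probes and 46.3% and 14.6% of those with a mean level of at least 4. There it was lowest of its group for 2 of 6 hepatocyte markers and 7 of 10 mitochondrial genes. Measured against the mean of SIRT1 LKO pools 1 and 2, pool 3 was lower by 0.87 for Acaa1b, 0.77 for the shared probe and 0.65 for the junction probe in the scanner file, and by 0.13, 0.15 and 0.16 in the value table. Acox2 went the other way, 0.41 higher in the scanner file and 0.75 higher in the value table. What set this array apart was not tested.

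Across the 6 arrays the Acox2 level correlated negatively with all 10 other probes, from -0.96 with Acox3 to -0.41 with Scp2. Of the 45 pairs without Acox2, 44 had a positive Pearson r, among them 0.99 for the junction and shared Acaa1 probes, 0.96 for the shared probe and Acaa1b and 0.90 for Ehhadh and the junction probe. These correlations are a description over 6 points that share array, slide and scaling. Without SIRT1 LKO pool 3 the r with Acox2 was negative for 7 of 10 probes and positive for 28 of 45 other pairs, and with the value table for 9 of 10 and 33 of 45.

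The gene whose level was most like each enzyme over the 6 arrays, by Pearson r among 11305 genes with a reference symbol, was Malt1 for Acox2 (0.996), Trib1 for Acox3 (0.994) and Bnip1 for Ehhadh (0.998). It was Paqr9 for Hsd17b4 (0.997), Mvp for Acaa1a (0.989), Hprt for Acaa1b (0.995) and Prss29 for Scp2 (0.993). For Amacr it was Hoxc4 (0.997) and for Decr2 it was Tti2 (0.979). Between 13 and 100 genes exceeded an r of 0.95 with each enzyme, and no 2 of the enzymes had the same nearest gene.

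Beside the cycle, 38 genes in 7 lists were read, not all of them peroxisomal. Of these, 35 had a tested probe and 0 passed the limma adjusted threshold. Of these 35, 21 were higher and 14 lower in SIRT1 LKO, with a median difference of 0.08, 8 had an unadjusted p under 0.05 and 12 did not overlap between groups, where 21.2% and 28.8% of all tested probes did so; the groups said to stand apart in the lists that follow are to be read against that 28.8%. The split was 16 higher and 19 lower, with a median of -0.01, under normexp background correction. Acot5, Hao2 and Dao had no tested probe. The enzymes of the cycle, at 1 probe per gene, gave 3 higher and 6 lower with a median of -0.11.

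Among genes that release or carry away the products, Acot3 and Acot4, peroxisomal acyl-CoA thioesterases, had the smallest p. Acot3 had levels of 1.04, 0.84 and 0.70 in the controls and 1.80, 1.44 and 1.66 in SIRT1 LKO, without overlap (difference 0.78, SE 0.14, limma adjusted p = 0.082), but the value table gave 0.06. For Acot4 the difference was 0.56 (adjusted p = 0.106), or 0.33 in the value table. Without SIRT1 LKO pool 3 the difference was 0.76 for Acot3 (adjusted p = 0.0679) and 0.62 for Acot4 (adjusted p = 0.0726). Neither passed the threshold.

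Among the enzymes that work beside the cycle, Hacl1, which removes 1 carbon in alpha-oxidation, had levels of -0.29, -0.07 and -0.32 in the controls and 0.29, 0.43 and 0.21 in SIRT1 LKO. These groups did not overlap (difference 0.54, adjusted p = 0.0972), and the value was 0.53 with the value table and 0.59 without pool 3. Phyh, the hydroxylase that precedes it, differed by 0.20 (adjusted p = 0.333), and by 0.30 without pool 3.

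Pex5, the receptor that brings most enzymes into the peroxisome, had levels of 3.29, 3.26 and 3.08 in the controls and 3.77, 3.60 and 3.54 in SIRT1 LKO (difference 0.43, adjusted p = 0.123). Lonp2, a peroxisomal protease, had levels of 6.81, 6.80 and 6.76 against 6.50, 6.63 and 6.23 (difference -0.33, adjusted p = 0.200; -0.22 without pool 3). The groups of both genes stood apart, in opposite directions, and neither passed the threshold.

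In the remaining lists too no gene passed. Slc27a2, which activates very long chain fatty acids, differed by 0.16 (adjusted p = 0.443), and Abcd2, a transporter of their CoA esters, by -0.23 (adjusted p = 0.516), or -0.55 in the value table and -0.35 without SIRT1 LKO pool 3. Without that pool Slc27a2 stood at 0.25. Abcd2 was dim, though well above background in all pools. Its levels were -3.60, -3.84 and -3.45 in the controls and -3.71, -4.25 and -3.64 in SIRT1 LKO, which overlapped. Cyp27a1 and Slc27a5, which feed the bile acid side chain into the cycle, differed by -0.23 (adjusted p = 0.401) and -0.09 (adjusted p = 0.643). Catalase (Cat), which removes the hydrogen peroxide that the oxidases release, differed by 0.08 (adjusted p = 0.760) and Hao1, another peroxide-forming oxidase, by 0.12 (adjusted p = 0.606), and these became 0.20 and 0.21 without pool 3. Slc27a5 became -0.02 with the value table and -0.06 without pool 3. Of the ether lipid enzymes, Agps differed by -0.32 (adjusted p = 0.156) and Far1, which makes the fatty alcohol, by 0.51 (adjusted p = 0.429). Far1 was dim, with levels of -3.68, -4.72 and -4.92 in the controls and -3.80, -3.72 and -4.29 in SIRT1 LKO, which overlapped.

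The mitochondrial counterparts of the cycle, 10 genes all tested, had 3 higher and 7 lower, a median of -0.03 and 0 past the threshold, with 1 and 9 under normexp background correction and 6 and 4 without SIRT1 LKO pool 3. Hadha, the alpha subunit of the mitochondrial trifunctional protein, had levels of 2.45, 2.40 and 2.36 in the controls and 2.04, 2.10 and 2.00 in SIRT1 LKO, without overlap (difference -0.36, adjusted p = 0.110). Decr1, the mitochondrial relative of Decr2, differed by -0.16 (adjusted p = 0.358), and by -0.39 in the value table. Whether mitochondrial and peroxisomal genes differed in response was not tested. Of the regulators, Ppara itself differed by 0.00 (adjusted p = 0.993) and its partner Rxra by 0.27 (adjusted p = 0.277). Ppargc1a, the coactivator PGC-1alpha, had levels of 0.65, 0.55 and -0.01 in the controls against -0.69, -0.60 and 0.24 in SIRT1 LKO. Pool 3 of each group made these overlap (difference -0.75, limma adjusted p = 0.218). Dropping SIRT1 LKO pool 3 moved the Ppargc1a difference to -1.04 (adjusted p = 0.0664). The value table put it at -0.88 (adjusted p = 0.0802), and neither fit took it past the threshold.

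**Figure D4:**
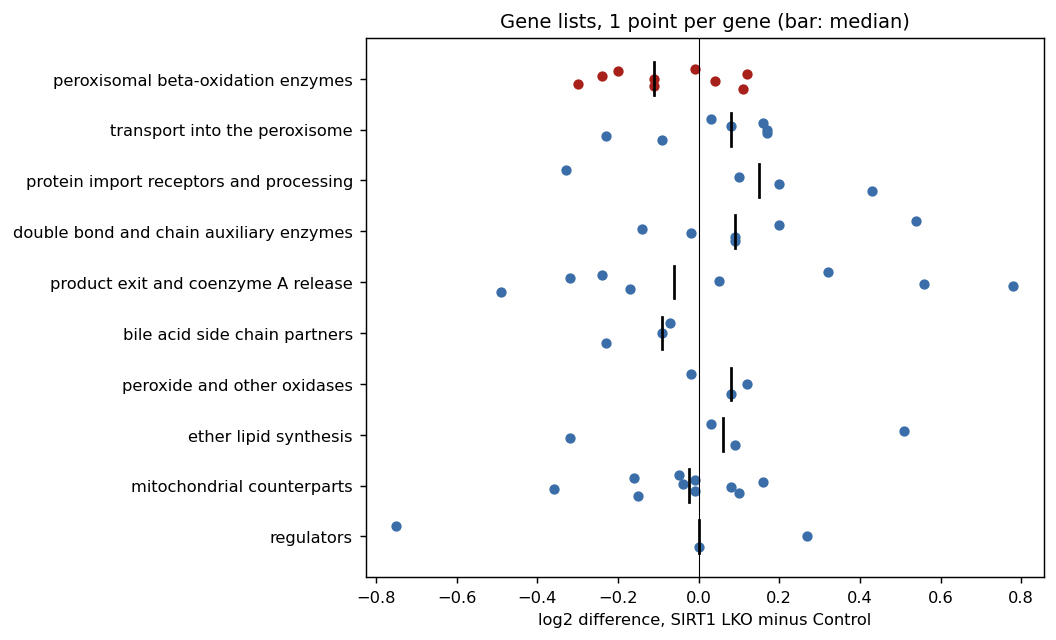
Log2 difference, SIRT1 LKO minus Control (x axis), of the tested genes in each list (y axis), 1 point per gene from its brightest tested probe, with a vertical bar at the median. The peroxisomal beta-oxidation enzymes (red) lie between -0.30 and 0.12, and the genes of the 7 lists beside the cycle between -0.49 and 0.78. No gene shown passed the adjusted threshold.

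Markers of other cells that a liver sample can hold were read beside these values, and none was past the threshold in any list. Among markers of Kupffer cells and macrophages 6 of 6 had a negative difference, with a median of -0.22, but 5 of 6 had a positive one (median 0.14) with the value table; their summed level was 5.41 to 6.20 in the controls and 5.46 to 6.01 in SIRT1 LKO. Of the adipocyte markers 2 of 6 were tested, with Adipoq, Lep, Plin1 and Retn too dim to test, and of the pancreatic acinar markers 3 of 6 were tested, with Cpa1, Pnlip and Prss2 too dim. The adipocyte markers tested went in opposite directions, Cfd by -3.44 (limma adjusted p = 0.114, well above background on 2 of the 3 SIRT1 LKO arrays) and Fabp4 by 0.29 (adjusted p = 0.187). So did the cholangiocyte markers, with Epcam at 0.70 (adjusted p = 0.164), Krt7 at 0.37, Krt19 at 0.07 and Sox9 at -1.12 (adjusted p = 0.0654). The part of these cells in the enzymes' values was not tested.

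Promoters of 7 of the 9 genes were read from the RefSeq table of GRCm38.p6, as 8 windows of 250 bases before to 50 bases after a start. That of Hsd17b4 is not reported here. The letters AGGTCANAGGTCA, the direct repeat form of the PPAR response element, were searched on both strands and were in 0 of the 8 windows and in 0.0396% of all 32851 windows. The AGGTCA letters alone were in 1 of 8, that of Scp2, and in 16.3% of all windows. These counts describe the letters in a short window and not binding.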

How the data were processed

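RNA from 6 pools was labelled with Cy3 from 500 ng and hybridised to Agilent arrays. Per the submitters' processing notes the scanner intensity was written by Agilent Feature Extraction 9.5, and per the file headers the processed intensity was background-subtracted and spatially detrended. The deposited value table holds linear intensity made with a Rosetta Resolver error model, per the labels. Control pools 1 to 3 had column medians of 74.5, 62.5 and 62.9 there, and SIRT1 LKO pools 1 to 3 had 62.0, 62.5 and 62.6. Its scale and direction matched the scanner files without centring in 5 columns. In that of SIRT1 LKO pool 3 the median ratio to the scanner file was 0.719, and how it was made is unknown. The scanner files also hold the authors' other spot marks, of 0 or 1, for saturation, outliers and background.

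Without control spots, and with outlier spots set missing, log2 values of a probe's spots were averaged and the array's 75th percentile subtracted. A probe was tested when well above background on all 3 arrays of a group. Each probe was fitted alone with limma 3.58.1 (lmFit, eBayes, two-sided) in R 4.3.3, with Benjamini-Hochberg adjustment over 23591 probes and a threshold of 0.05. The steps were tested on simulated data, with planted differences far larger than those of the enzymes and without a slide effect. That test does not show whether differences of the enzymes' size would be found. List genes were read at their brightest tested probe. Members and lists were chosen with earlier results of these data known. Named genes are all members, Sirt1, in each list the 2 genes with the smallest p where none passed, and each member's most correlated gene. Ppara and single markers named besides were chosen after their values were seen. The sequence of 1 probe is not reported here. The number of arrays limits the precision.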

Additional observations from a re-analysis of the deposited data

How the results depend on the processing

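The 19 alternatives gave 205 values of the 11 enzyme probes, of which 193 kept sign and side of the threshold and 12 turned sign; no enzyme probe passed in any, with limma adjusted p from 0.106 to 0.997. The 3 Acaa1a probes, Acox3, Ehhadh and Amacr kept their sign throughout. Changed filters, the replicate block and the intensity trend cannot alter a probe's difference, so part of the 193 was fixed in sign in advance. Turned values were -0.01 for Acox2, -0.19 for Hsd17b4 and -0.05 for Scp2 with normexp background correction, 0.00 for Hsd17b4 with quantile normalization, -0.03 for Acox2 and 0.07 for Decr2 with array weights and 0.01 for Acaa1b with the value table. Leaving out 1 pool at a time gave -0.12 to 0.09 for Decr2, -0.03 to 0.20 for Acox2 and -0.40 to 0.05 for Acaa1b. At an unadjusted p under 0.05 the enzyme probes numbered 0 of 11 as reported, 4 with quantile normalization, 2 with array weights and 1 each with normexp, the value table and 3 of the 6 fits without a pool. All tested probes under that limit numbered 5007 of 23591 as reported, 5373 with quantile normalization, 9058 with array weights and 1567 with normexp. With the value table they numbered 6197 of 23592. In those 3 fits without a pool they numbered 4496 of 23584, 3847 of 24263 and 7198 of 24481. The cause of these shifts was not tested.

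The count over all probes, 15 as reported, was far less steady: 49 with a filter to all 6 arrays, 91 with an intensity trend and robust variance, 308 with the value table, 4816 with array weights, 24 with the brightest probe per gene, 24 with the mean of a gene's probes, and 0 to 3 when 1 pool was left out. It was 0 with normexp, with no filter on dim probes and with slide as a random block, where limma gave 1567, 6858 and 2631 probes at an unadjusted p under 0.05. Pathway genes past the threshold stayed at 0 in the settings run for them (value table, slide block, replicate block, each pool left out). The brighter Sirt1 probe ranged from -0.29 to -0.17, except -0.13 as the mean of both probes.

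Replicate numbers did not pair the pools: deviations of same-numbered pools correlated at 0.01, -0.04 and -0.09. In this balanced design a replicate block cannot change the differences of the enzyme probes (Ehhadh -0.30). The SE can change, and for Ehhadh it was 0.20 against 0.17 without the block. With the block limma passed 0 of all probes, 4365 having an unadjusted p under 0.05. Removing the filter moved the median of all probes to -0.10 and normexp to 0.09, against 0.02. Signal over background limited 1 of the 12 probes, the second of Scp2.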
